A study of Mus musculus with 24 samples.

Results

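Spinal cord RNA of mice on day 14 after spared nerve injury was set against spinal cord RNA on day 3 after the same injury. In this model of neuropathic pain the common peroneal and tibial branches of the sciatic nerve are tied and cut and the sural branch is left whole, and mice of both groups had this operation. The comparison used 6 of the 12 input libraries, which are RNA-seq libraries made without antibody enrichment: 3 from day 14 and 3 from day 3. Levels were length- and depth-scaled fragment counts (FPKM), and the 15539 of 32884 genes with a mean of at least 0.5 FPKM over the 6 libraries were tested. The choice of libraries and genes used no measured difference between the days. The 3 sham-operated libraries, labelled day 3, and the 3 day 7 libraries are given only as levels beside those of single genes. Strain, age, sex, the segment and side of cord, and whether a library came from 1 mouse or from several are not stated in the sources used here. The p-values therefore rest on the spread among libraries alone, and that spread may be technical.

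A neuron whose axon is cut in a peripheral nerve switches on a growth programme that includes the transcription factor Atf3, the proline-rich protein Sprr1a and the growth cone protein Gap43. The motor neurons of a cut nerve lie in the cord itself, while the cell bodies of its sensory neurons lie in the dorsal root ganglia outside it. Around the injured neurons, microglia divide and take up complement and lysosomal functions within days, and astrocytes raise intermediate filament proteins such as Gfap. Days 3 and 14 are commonly taken as an early and an established stage of the pain state.

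The 6 libraries looked like spinal cord. Rbfox3, a neuronal splicing factor, stood at 24.2 to 26.8 FPKM, the astrocyte glutamate transporter Slc1a2 at 113 to 114 FPKM and the microglial receptor P2ry12 at 7.59 to 8.33 FPKM, whereas Scn10a, the sodium channel of pain-sensing ganglion neurons, was at or below 0.0105 FPKM in all 6. FPKM summed to 197878 to 198624 per day 14 library and to 199907 to 201358 per day 3 library, and read depth is unknown. Among genes of at least 100 FPKM, ratios between a pair of libraries had a spread of 1.93 to 2.14% within a day and of 4.08 to 5.17% between days. Among genes at 1 to 2 FPKM it was 17.1 to 19.1% within and 18.6 to 20.7% between days. Transcripts of other organs were found in several libraries: the lung transcript Scgb1a1 was at 118 FPKM in day 3 library 1 and listed at 0 in the other 5, and the liver transcript Alb was at 85.4 FPKM in day 3 library 2 and at 0 to 3.18 FPKM in the others. Liver transcripts were also present at lower levels in day 3 library 3 (Apoa2 6.46, Apoa1 4.85 and Alb 3.09 FPKM) and in day 14 library 2 (Alb 3.18, Apoa1 2.45 and Ahsg 1.84 FPKM). The muscle transcript Acta1 was at 2.82 FPKM in day 14 library 2 and 4.20 FPKM in day 3 library 2, and at 0.305 to 0.843 FPKM elsewhere. Of 8 tested lung and liver genes, 0 passed the test between the days by limma and 0 had an unadjusted p below 0.05. These genes were picked after the data were seen, and each was highest in a single day 3 library. Such spread within day 3 leaves little room for a call, so these counts cannot show how far RNA of other organs entered the results below. That was not tested.

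Between the days 148 genes passed the test, 0.952% of those tested. On day 14, 61 genes were higher (0.393%) and 87 were lower (0.56%), by limma on log2(FPKM + 0.5) with a Benjamini-Hochberg adjusted p below 0.05; genes past this threshold are called genes. Most differences were small, with a median absolute log2 difference of 0.17 among the called genes, and 55 of them differed by at least 0.2 (20 higher, 35 lower). Called genes were mostly abundant, with a median level of 41.8 FPKM against 4.52 FPKM over all tested genes, and 2388 genes had an unadjusted p below 0.05. Rescaling to TPM, which sums to the same total in every library, turned the split to 118 higher and 76 lower (60.8% higher, against 41.2% as deposited), and quantile normalisation to 67 higher and 40 lower (62.6% higher). Each library weighed heavily on the number of calls: 15, 8 and 10 genes were called without day 14 library 1, 2 or 3, and 17, 14 and 8 without day 3 library 1, 2 or 3. The main fit did not pair libraries of the same number, and with the replicate number as a block 7 genes were called (3 higher, 4 lower). Without day 3 libraries 1 and 2, which held the most lung and liver RNA, 4 genes were called, although day 3 library 3 and day 14 library 2, which stayed in, held some liver RNA, and with no filter on low values 8. The log2 difference of all 148 genes kept its sign after rescaling to TPM, and 144 of 148 did after quantile normalisation. In the fits with libraries left out or with no filter the sign could not turn, because the groups of all 148 genes did not overlap.

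**Figure D1:**
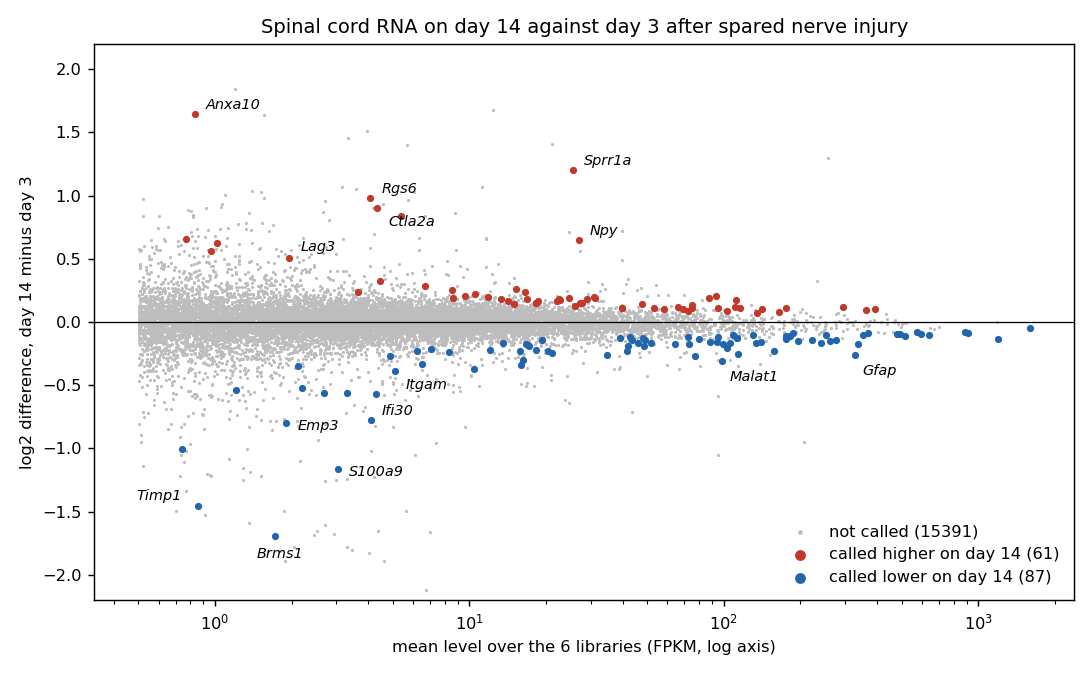
Each point is 1 of the 15539 tested genes, placed by its mean level over the 6 libraries (FPKM, log axis) and its log2 difference, day 14 minus day 3. Red points are the 61 genes called higher on day 14 and blue points the 87 called lower, most of them at high levels and near 0; 9 genes lie beyond the vertical axis, 1 of them called.

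Genes of the axon injury programme led the genes that rose. Of 30 tested genes on a list of axotomised neuron markers, 5 were called higher on day 14 and 0 lower, and in bulk tissue a change in the number of cells of a type and in the RNA of each cell cannot be told apart. The day 14 values lay wholly above the day 3 values in 13 of the 30 genes and wholly below in 5, where 11.8% and 9.92% of all tested genes did so. The median log2 difference of the list was 0.07, against 0.002 over all tested genes. Without any 1 library 2 to 3 of the 5 were still called.

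Sprr1a encodes a small proline-rich protein that promotes axon outgrowth (ENSMUSG00000050359, chromosome 3, 92483952 to 92485895, minus strand). It stood at 36.3, 32.6 and 38.4 FPKM in the day 14 libraries and at 16, 14.9 and 14.8 FPKM in the day 3 libraries, so the groups were far apart. The log2 difference was 1.2 ± 0.06 (SE, n = 3 libraries per day, limma adjusted p = 0.00187). Anxa10, a member of the annexin family of calcium-dependent phospholipid-binding proteins (ENSMUSG00000031635, chromosome 8, 62057042 to 62123150, minus strand), was near absent on day 3. Its values were 1.49, 1.43 and 1.64 FPKM on day 14, against 0.0894, 0.167 and 0.180 FPKM on day 3. The groups did not overlap, and the log2 difference was 1.65 ± 0.10 (SE, limma adjusted p = 0.00484). Sprr1a and Anxa10 kept their calls whichever library was left out, as did Rgs6, Gfap and Kctd12. Every other called gene named here by the naming rule lost its call without at least 1 library.

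The sequences before the starts of Sprr1a and Anxa10 are shown because these were the injury genes with the largest differences and because AP-1, the factor that Jun and Atf3 proteins help to form, acts through a short known site. In the 250 bases before each start (RefSeq, GRCm38.p6; Sprr1a chr3:92485882-92486131, minus strand, and Anxa10 chr8:62123194-62123443, minus strand), capitals mark the AP-1 site TGANTCA and the TATA box TATAAA.
Sprr1a: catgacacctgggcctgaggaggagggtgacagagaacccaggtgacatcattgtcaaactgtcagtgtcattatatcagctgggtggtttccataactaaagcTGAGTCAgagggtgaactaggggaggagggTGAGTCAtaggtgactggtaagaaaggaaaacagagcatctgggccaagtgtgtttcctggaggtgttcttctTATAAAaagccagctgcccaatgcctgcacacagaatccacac
Anxa10: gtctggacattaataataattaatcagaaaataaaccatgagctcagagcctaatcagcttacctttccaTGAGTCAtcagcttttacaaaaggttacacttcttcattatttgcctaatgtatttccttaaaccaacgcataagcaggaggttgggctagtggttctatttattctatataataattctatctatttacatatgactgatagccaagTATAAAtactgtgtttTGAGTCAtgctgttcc

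Both promoters held 2 copies of TGAGTCA, beginning at -146 and -116 in Sprr1a and at -180 and -16 in Anxa10, counted in bases from the start. Searched on both strands in windows of 300 bases that run 50 bases past the start, the AP-1 site TGANTCA was in 7 of 48 promoters of genes called higher (14.6%) and in 2 of 65 of genes called lower (3.08%). It was in 505 of 10931 promoters of tested genes (4.62%) and in 7.93% of all promoters searched. Among gene lists, it was in 4 of 23 promoters of axotomised neuron genes (17.4%) and in 6 of 18 of interferon genes (33.3%). It was also in 2 of 15 of activated microglia genes (13.3%) and in 2 of 17 of unfolded protein response genes (11.8%). Both of these lists had a negative median log2 difference. In the other lists searched the share was 0 to 7.69%. The windows of Npy and Ecel1, called higher on the injury list, held no AP-1 site. Promoters were matched for 48 of 61 genes called higher and 65 of 87 called lower. A match describes the letters only and shows no binding.

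Npy, a peptide transmitter that injured neurons are known to take up making (ENSMUSG00000029819, chromosome 6, 49822710 to 49829507), was at 30.6, 33.5 and 34.8 FPKM on day 14 and at 20, 22.3 and 20.2 FPKM on day 3. All day 14 values were higher, with a log2 difference of 0.65 ± 0.06 (SE, limma adjusted p = 0.0148). Ecel1, a membrane endopeptidase-like protein induced by nerve injury, was at 16.1, 16.9 and 17.0 FPKM on day 14, against 14.0, 13.6 and 13.9 FPKM on day 3 (log2 difference 0.26 ± 0.03, limma adjusted p = 0.0239). Gap43 was at 99.4, 98.8 and 98.5 FPKM on day 14, against 92.1, 90.5 and 91.5 FPKM on day 3. The groups did not overlap, but the difference was only 0.11 ± 0.01 on the log2 scale (limma adjusted p = 0.0244).

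Other members of the list did not pass. Atf3 was at 5.97, 5.32 and 6.20 FPKM on day 14 and at 6.49, 6.29 and 6.04 FPKM on day 3, so the groups overlapped (log2 difference -0.10 ± 0.06, limma adjusted p = 0.498). Sham libraries held 0.353, 0.329 and 0.585 FPKM of Atf3, below every library of either day, and day 7 libraries 8.02, 7.75 and 10.5 FPKM. Jun, the partner of Atf3 in AP-1, had a log2 difference of -0.05 (limma adjusted p = 0.422). S100a11, a calcium-binding protein, and Gal, the neuropeptide galanin, had non-overlapping higher values on day 14 with log2 differences of 0.36 and 0.38 (limma adjusted p = 0.0711 and 0.131). The difference between these genes and Sprr1a was not tested.

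**Figure D2:**
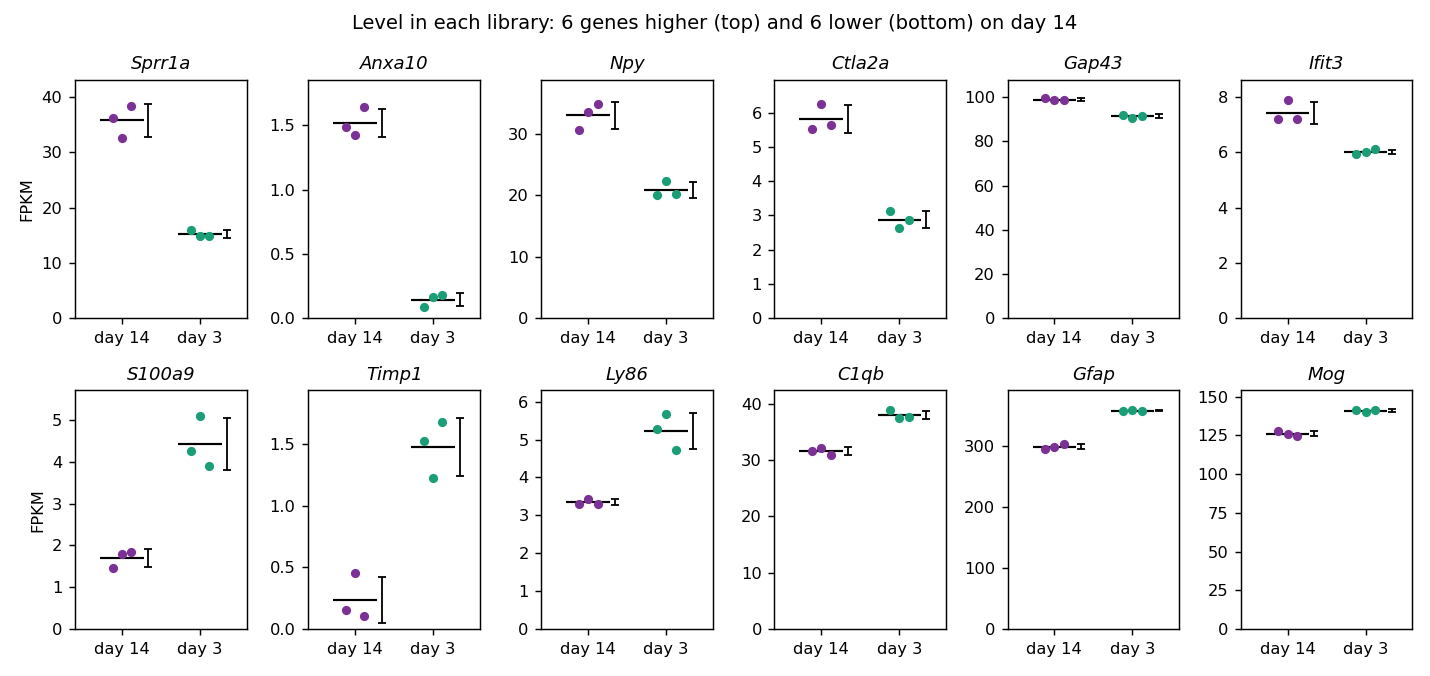
Each panel gives the level of 1 gene (FPKM, axis from 0) in the 3 day 14 libraries, left, and the 3 day 3 libraries, right, with the mean as a line and the SD as a bar. In the top row all day 14 points lie above all day 3 points and in the bottom row below, with Gap43 and Mog differing by less than a log2 of 0.2 and Anxa10 and Timp1 by more than 1.

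Several other genes rose by larger amounts. Rgs6, a regulator that shortens G protein signalling (chromosome 12, 82588292 to 83162056), was at 5.76, 5.49 and 5.5 FPKM on day 14 and 2.68, 2.58 and 2.49 FPKM on day 3 (log2 difference 0.98 ± 0.04, limma adjusted p = 0.00145). Its sham values were 5.01, 5.55 and 7.4 FPKM, so among these groups the day 3 libraries were the low ones. Ctla2a, an inhibitor of cathepsin-type proteases and the only called member of the endothelial list (1 of 19), was at 5.51, 6.26 and 5.65 FPKM on day 14, against 3.12, 2.64 and 2.86 FPKM on day 3 (0.90 ± 0.07, limma adjusted p = 0.0123). Its call was lost without day 14 library 2 or 3 or day 3 library 3, with adjusted p of 0.0519 to 0.072 and log2 differences of 0.85 to 0.92. Cyp1b1, a cytochrome P450 enzyme, was at 1.06, 0.957 and 1.14 FPKM on day 14, against 0.49, 0.443 and 0.525 FPKM on day 3 (log2 difference 0.65 ± 0.09, limma adjusted p = 0.0396). Lag3, an inhibitory immune receptor that binds MHC class II molecules, was at 2.43, 2.31 and 2.43 FPKM on day 14, against 1.53, 1.38 and 1.69 FPKM on day 3 (0.51 ± 0.07, limma adjusted p = 0.0396). Rasal1, which switches off Ras, rose by 0.32 and Sf3a2, a splicing factor subunit, by 0.25 on the log2 scale.

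Most of the remaining called genes that rose were abundant and differed little. Pcsk1n, which encodes the prohormone convertase inhibitor proSAAS, was at 100.1, 100.6 and 99.6 FPKM on day 14 and at 88.3, 86.0 and 85.5 FPKM on day 3 (log2 difference 0.21 ± 0.02, limma adjusted p = 0.0123). Map1b, a microtubule-associated protein of growing axons, was at 92.8, 92.6 and 93.1 FPKM on day 14, against 80.5, 82.1 and 81.9 FPKM on day 3 (0.19, limma adjusted p = 0.0119). L1cam, an axonal adhesion molecule, was higher by 0.17, Lrp1, an endocytic receptor, by 0.15, Kif1a, a synaptic vesicle motor, by 0.10, and App, the amyloid precursor protein, by 0.08. Ank3, the ankyrin that organises the axon initial segment, rose by 0.22, Kcna1, an axonal potassium channel subunit and the only called gene of 30 potassium channel genes, by 0.19, and Jund, an AP-1 subunit, by 0.20. Prrc2a, reported to bind N6-methyladenosine (m6A), was the only called gene of 23 m6A enzymes and readers (0.19), and Meg3, a long noncoding RNA of neurons, rose by 0.12. In sham Map1b was at 91.4, 91.4 and 127 FPKM, above every day 3 library. All sham values of Ank3, Kcna1 and Meg3 lay above day 3 as well. For the other genes of this paragraph sham library 3, which stood apart from its group, lay below day 3.

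Myeloid genes were lower on day 14. Of 15 tested genes on the homeostatic microglia list 2 were called lower and 0 higher, and the day 14 values lay wholly below those of day 3 in 9 and wholly above in 0. Of 18 on the activated microglia list 3 were called lower and 0 higher, with 9 wholly below and 0 wholly above. Of 7 tested complement genes 2 were called lower and 0 higher, with 5 wholly below and 0 wholly above. The median log2 differences of the 3 lists were -0.17, -0.12 and -0.21. Over all tested genes 0.56% were called lower and 0.393% higher, and 9.92% lay wholly below and 11.8% wholly above. These shares serve for the lists below as well. Without any 1 library 0 to 1 of the homeostatic calls, 0 of the activated calls and 0 of the complement calls were kept by limma, whose tests then had 5 libraries; for C1qb the adjusted p over all alternatives ran from 0.00715 to 1 and the log2 difference from -0.28 to -0.25.

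Ly86, the MD-1 partner of the Toll-like receptor homologue Cd180 (ENSMUSG00000021423, chromosome 13, 37345208 to 37419036), was at 3.31, 3.43 and 3.31 FPKM on day 14 and at 5.28, 5.68 and 4.73 FPKM on day 3 (log2 difference -0.57 ± 0.06, limma adjusted p = 0.0239). Bin2, which binds and bends membranes in myeloid cells, was at 2.16, 1.92 and 2.13 FPKM on day 14, against 3.07, 3.25 and 3.58 FPKM on day 3 (-0.56 ± 0.07, limma adjusted p = 0.0277). Itgam, the CD11b chain of complement receptor 3, was at 4.10, 4.41 and 4.51 FPKM on day 14, against 6.07, 5.59 and 5.87 FPKM on day 3 (-0.39 ± 0.05, limma adjusted p = 0.031). In all 3 genes the highest day 14 library lay below the lowest day 3 library. Olfml3, a secreted protein of microglia, fell by 0.56 ± 0.07 (limma adjusted p = 0.0319) and Sparc, a matrix protein that both microglia and astrocytes secrete, by 0.17 ± 0.01 (limma adjusted p = 0.0126).

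C1qb and C1qc encode chains of C1q, the starter of the classical complement pathway. C1qb was at 31.7, 32.2 and 30.9 FPKM on day 14 and at 38.8, 37.5 and 37.6 FPKM on day 3, without overlap (log2 difference -0.26 ± 0.02, limma adjusted p = 0.0148). C1qc was at 14.8, 13.8 and 14.8 FPKM on day 14, against 18.4, 17.8 and 17.7 FPKM on day 3 (-0.30 ± 0.03, limma adjusted p = 0.0239). The chain partner C1qa had a log2 difference of -0.14 (limma adjusted p = 0.178), and C3, the central complement protein, had overlapping groups (-0.21, limma adjusted p = 0.517).

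Genes of the same lists that did not pass mostly had lower day 14 values as well. Csf1r, the receptor for the microglial survival factor, was at 13.8, 13.8 and 13.6 FPKM on day 14, against 15.9, 15.0 and 15.5 FPKM on day 3 (log2 difference -0.17, limma adjusted p = 0.0536). Cx3cr1, the fractalkine receptor, and Tmem119, a microglial membrane protein, differed by -0.26 and -0.23 (limma adjusted p = 0.101 and 0.0955). Fcgr3, an immunoglobulin receptor, differed by -0.31 (limma adjusted p = 0.0705), and in all 4 genes the groups did not overlap. Of 20 lysosome and phagocytosis genes 0 were called, with 10 at an unadjusted p below 0.05 by limma, 10 wholly below and 0 wholly above and a median of -0.06. Ccl7, a monocyte chemokine, was at 0.552, 0.305 and 0.276 FPKM on day 14, against 1.26, 0.860 and 1.54 FPKM on day 3 (log2 difference -0.96, limma adjusted p = 0.0877), and 0 of 9 tested chemokine and cytokine genes were called by limma, 3 of them having an unadjusted p below 0.05. Of these 9, 2 lay wholly above and 2 wholly below, with a median of 0.03; Cxcl12, a chemokine of stromal cells and astrocytes, averaged 6.83 FPKM on day 14 and 6.21 FPKM on day 3 (log2 difference 0.13, limma adjusted p = 0.189).

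Ifi30, a lysosomal thiol reductase that serves antigen processing, was at 3.15, 2.59 and 2.92 FPKM on day 14 and at 5.2, 4.67 and 6.1 FPKM on day 3 (log2 difference -0.78 ± 0.10, limma adjusted p = 0.0374). Gngt2, a G protein gamma subunit, fell by 0.54, and Lgmn, the lysosomal protease legumain, by 0.16. Emp3, a small membrane protein of the PMP22 family, was at 1.31, 1.52 and 0.977 FPKM on day 14, against 2.67, 2.46 and 2.51 FPKM on day 3 (-0.80 ± 0.12, limma adjusted p = 0.0465).

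Tested cell cycle genes stood mostly below their day 3 values without passing the test. The list held 40 genes, and those under the minimum of 0.5 FPKM, among them Mki67, Top2a and Cdk1, were not tested. Of 21 tested cell cycle genes 0 were called by limma, 6 had an unadjusted p below 0.05, 8 had day 14 values wholly below those of day 3 and 0 wholly above, and 20 of 21 log2 differences were negative, with a median of -0.10. Ccna2, a cyclin of DNA synthesis and mitotic entry, was at 0.444, 0.380 and 0.540 FPKM on day 14, against 0.791, 0.802 and 1.16 FPKM on day 3 (limma adjusted p = 0.131). Its means were 0.455 FPKM on day 14 and 0.918 FPKM on day 3, so it reached the minimum level only through day 3. Tpx2, a spindle assembly factor, was at 0.556, 0.519 and 0.453 FPKM on day 14, against 0.776, 0.825 and 0.830 FPKM on day 3 (limma adjusted p = 0.127).

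Blood transcripts were lower on day 14 as well. S100a9, a calcium-binding protein of neutrophils (ENSMUSG00000056071, chromosome 3, 90692632 to 90695721), was at 1.45, 1.79 and 1.85 FPKM on day 14 and at 4.25, 5.10 and 3.90 FPKM on day 3, a log2 difference of -1.16 ± 0.11 (SE, limma adjusted p = 0.0173). It was the only called gene of 6 on the neutrophil list, of which 5 had day 14 values wholly below day 3, and its adjusted p over all alternatives ran from 0.0091 to 0.248. The levels of the neutrophil list summed to 8.3 to 9.0 FPKM in day 14 libraries and to 12.1 to 13.8 FPKM in day 3 libraries. The erythroid list, which marks red cells, summed to 391.7 to 406.3 FPKM on day 14 and to 463.4 to 556.5 FPKM on day 3, with 0 of 7 genes called by limma, 4 at an unadjusted p below 0.05 and 5 wholly below. Hbb-bs, a beta globin, was at 120.9, 123.4 and 123.3 FPKM on day 14, against 174, 144 and 146 FPKM on day 3 (limma adjusted p = 0.104). The part of residual blood in the lower myeloid genes was not tested; Tmem119, a microglial marker, was at 5.13 to 5.46 FPKM on day 14, against 5.95 to 6.62 FPKM on day 3, and P2ry12, a receptor of microglia and of platelets, was at 7.59 to 8.09 FPKM on day 14, against 7.75 to 8.33 FPKM on day 3, so its groups overlapped. Monocyte transcripts could not be compared cleanly: Lyz2 was at 15.7 FPKM in the day 3 library with lung RNA and at 4.03 to 4.88 FPKM in the other 5, and 0 of 4 genes on that list were called or had an unadjusted p below 0.05 by limma.

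Gfap, the intermediate filament of astrocytes (ENSMUSG00000020932, chromosome 11, 102887336 to 102900912), fell. It was at 295, 299 and 304 FPKM on day 14 and at 358, 359 and 357 FPKM on day 3, a log2 difference of -0.26 ± 0.01 (SE, limma adjusted p = 0.00187). The 3 sham libraries had 344, 338 and 296 FPKM, so sham library 3 lay within the day 14 range and the other sham libraries lay between the days. Timp1, a metalloproteinase inhibitor that reactive astrocytes secrete, was at 0.150, 0.450 and 0.101 FPKM on day 14, against 1.53, 1.22 and 1.68 FPKM on day 3 (-1.45 ± 0.20, limma adjusted p = 0.0382). Timp1 lies inside Syn1, a neuronal gene on the other strand at 85.7 FPKM on day 14 and 79.5 FPKM on day 3, and the sources used here do not state whether strand entered the counting. These were the 2 called genes of 23 on the reactive astrocyte list, and 3 of the 23 had day 14 values wholly above day 3 and 6 wholly below. Among all tested genes 11.8% lay wholly above and 9.92% wholly below. Vim, another astrocyte filament protein, and Cd44, a surface receptor, differed by 0.07 and 0.09 (limma adjusted p = 0.431 and 0.446). Of 16 astrocyte identity genes Aqp4, the water channel of astrocyte endfeet, alone was called (75.4, 76.2 and 76.9 FPKM on day 14, against 82.9, 83.9 and 84.5 FPKM on day 3, log2 difference -0.14).

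Several myelin genes were lower by small amounts. Of 20 tested myelin genes 8 were called lower, against 0.56% of all tested genes, and 0 higher. In 14 the day 14 values lay wholly below day 3, against 9.92% of all tested genes, and in 0 wholly above. The median log2 difference was -0.09. Mog, a surface protein of the myelin sheath, was at 128, 126 and 124 FPKM on day 14 and at 141, 140 and 142 FPKM on day 3. The groups did not overlap, yet the difference was only -0.16 ± 0.01 on the log2 scale (limma adjusted p = 0.0132). Ugt8a, which makes galactosylceramide, fell by 0.19, Cldn11, the tight junction protein of myelin, by 0.15, Mobp by 0.10, Mal by 0.11 and Trf, the iron carrier transferrin, by 0.10. Mbp, which compacts the sheath, was at 1564, 1574 and 1569 FPKM on day 14, against 1630, 1623 and 1613 FPKM on day 3 (-0.05, limma adjusted p = 0.0475), and quantile normalisation set its difference to 0 and left 3 of the 8 calls. Without any 1 library 1 to 2 of the 8 were still called. Olig2, a transcription factor of the oligodendrocyte lineage, fell by 0.23 (limma adjusted p = 0.04), the only called gene of 16 on the precursor list.

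Sterol synthesis genes, which supply cholesterol to myelin and other membranes, were mostly lower too. Of 20 tested 2 were called lower and 0 higher, 11 had day 14 values wholly below day 3 and 1 wholly above, and the median was -0.09; quantile normalisation left 0 calls by limma with a median of -0.09; as deposited 11 of the 20 had an unadjusted p below 0.05. Hmgcs1, the cytosolic HMG-CoA synthase (ENSMUSG00000093930, chromosome 13, 119690379 to 119708260), was at 93.2, 93.8 and 92.7 FPKM on day 14 and at 104, 107 and 105 FPKM on day 3 (log2 difference -0.17 ± 0.01, limma adjusted p = 0.0126). Msmo1, a sterol methyl oxidase, was at 16.1, 15.6 and 16 FPKM on day 14, against 18.5, 17.9 and 17.9 FPKM on day 3 (-0.18 ± 0.03, limma adjusted p = 0.04). Fdft1, Cyp51, Sqle and Sc5d, enzymes of the same pathway, differed by -0.10 to -0.14 without passing, and Mvd, another of them, by 0.13. Fatty acid synthesis genes had 0 of 11 called by limma and 4 at an unadjusted p below 0.05. Among all tested genes 9.92% lay wholly below and 11.8% wholly above, and 2388 of 15539 had an unadjusted p below 0.05 by limma.

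The promoter of Hmgcs1 is shown because Hmgcs1 had the smallest p of the called genes of this pathway, whose members share a known control by SREBP and NF-Y factors (250 bases before the start, RefSeq, GRCm38.p6, chr13:119690101-119690350, plus strand). Capitals mark the sterol response element, found as TCACCCCAC at -137, and the CCAAT box, found on the other strand as ATTGG.
Hmgcs1: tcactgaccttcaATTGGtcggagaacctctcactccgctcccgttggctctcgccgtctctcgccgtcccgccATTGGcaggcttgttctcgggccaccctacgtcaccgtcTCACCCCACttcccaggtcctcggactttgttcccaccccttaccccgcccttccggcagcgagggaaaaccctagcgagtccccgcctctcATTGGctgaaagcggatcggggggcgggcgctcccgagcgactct

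Searched on both strands, CCAAT was in 12 of 13 matched promoters of sterol synthesis genes (92.3%) and in 38.8% of promoters of tested genes. It was also in 15 of 17 promoters of unfolded protein response genes (88.2%) and in 13 of 16 of cell cycle genes (81.2%). In the other lists searched the share was 31.6 to 46.7%. The sterol response element, with any base at 1 of its positions, was in 1 of the 13 (7.69%) and in 1.05% of promoters of tested genes. These counts describe letters in these windows.

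Genes for protein synthesis and respiration were slightly lower on day 14. Of 50 tested cytosolic ribosomal protein genes 5 were called lower, against 0.56% of all tested genes, and 0 higher. In 33 the day 14 values lay wholly below day 3, against 9.92% of all tested genes, and in 0 wholly above. The median was -0.09 as deposited, -0.08 rescaled to TPM and -0.06 after quantile normalisation, which left 2 calls. Rps29, a small subunit protein, was at 148, 142 and 147 FPKM on day 14, against 170, 172 and 169 FPKM on day 3 (log2 difference -0.23 ± 0.02, limma adjusted p = 0.0132). Rps18, Rpl37, Rpsa and Rpl3 fell by 0.19, 0.17, 0.13 and 0.12. Values of ribosomal protein genes are uncertain where near-identical pseudogenes exist, and how such reads were assigned was not tested.

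Of 44 nuclear genes of the respiratory chain 3 were called lower and 0 higher (Ndufs6 of complex I by 0.17, Cox6b1 and Cox4i1 of complex IV by 0.15 and 0.10), with 21 wholly below, 1 wholly above and a median of -0.05. The 13 genes of the mitochondrial genome had a median of -0.20, 0 calls by limma and 4 genes at an unadjusted p below 0.05. Their levels summed to 481 to 536 FPKM in day 14 libraries and to 469 to 644 FPKM in day 3 libraries, so the groups overlapped, and the median was -0.07 without day 3 libraries 1 and 2. Pdia6, a disulfide isomerase of the endoplasmic reticulum, was the only called gene of 19 unfolded protein response genes (-0.22), and its call was lost under rescaling to TPM and quantile normalisation. Tuba1a and Tuba1b, alpha tubulins, fell by 0.10 each and were the 2 called genes of 13 tested tubulin genes. The neurofilament genes Nefm and Nefh fell by 0.11 and 0.09, and Prph, which encodes the neuronal filament protein peripherin, by 0.17. These last 3 were the called genes of 21 on the motor and cholinergic list, where Slc5a7, the choline transporter, was at 11.8, 12.1 and 12 FPKM on day 14, against 10.2, 10.1 and 10.9 FPKM on day 3 (log2 difference 0.19, limma adjusted p = 0.0679).

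Sgk1, a kinase induced by glucocorticoids, was at 14.3, 13.5 and 14.3 FPKM on day 14 and at 17.5, 17.9 and 18.2 FPKM on day 3 (log2 difference -0.34 ± 0.03, limma adjusted p = 0.0148), against 7.08, 6.94 and 11.5 FPKM in sham. Mt1, a metal-binding protein also induced by glucocorticoids, fell by 0.13, and these were the called genes of 18 on the list, 2 in all. Malat1, a nuclear long noncoding RNA, was at 85.5, 90.6 and 88.1 FPKM on day 14, against 108, 112 and 108 FPKM on day 3 (-0.31 ± 0.03, limma adjusted p = 0.0126). Gsn, the actin-severing protein gelsolin, was lower by 0.27, and Gm43128, which overlaps it on the same strand, averaged 1.44 FPKM on day 14 and 1.15 FPKM on day 3; Gsn itself averaged 69.8 FPKM on day 14 and 84.1 FPKM on day 3.

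Interferon-stimulated genes stood higher on day 14. Of 23 tested 1 was called higher, against 0.393% of all tested genes, and 0 lower. In 11 the day 14 values lay wholly above day 3, against 11.8% of all tested genes, and in 0 wholly below. Of the 23 log2 differences 21 were positive, with a median of 0.17. Ifit3, which binds viral RNA complexes (ENSMUSG00000074896, chromosome 19, 34583531 to 34588731), was at 7.19, 7.88 and 7.18 FPKM on day 14 and at 5.94, 5.99 and 6.10 FPKM on day 3 (log2 difference 0.28 ± 0.04, limma adjusted p = 0.0495). Its call was lost when each library in turn was left out and under quantile normalisation. Stat2 and Irf9, subunits of the factor that carries the type I interferon signal, differed by 0.27 and 0.12 (limma adjusted p = 0.189 and 0.301), and Ifit1 by 0.28 (0.171). The groups of these 3 did not overlap. Of 12 antigen presentation genes 0 were called by limma, 4 had an unadjusted p below 0.05, 5 lay wholly above and 0 wholly below, with a median of 0.11; B2m, the light chain of MHC class I, was at 89.2, 84.7 and 88.5 FPKM on day 14, against 75.1, 81.8 and 75.1 FPKM on day 3. Ifit3 in sham was at 13.5, 14.7 and 6.64 FPKM.

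The promoter of Ifit3 is shown because Ifit3 was the called gene of the interferon list and these genes share a known element, the interferon-stimulated response element (ISRE), bound by that factor (250 bases before the start, RefSeq, GRCm38.p6, chr19:34583279-34583528, plus strand). Capitals mark both matches to the ISRE, beginning at -156 and -122.
Ifit3: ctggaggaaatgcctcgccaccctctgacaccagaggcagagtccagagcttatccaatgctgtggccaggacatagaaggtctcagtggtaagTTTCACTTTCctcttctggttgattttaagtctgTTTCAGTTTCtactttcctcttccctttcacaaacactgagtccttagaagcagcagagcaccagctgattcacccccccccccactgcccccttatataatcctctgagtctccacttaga

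The ISRE, searched on both strands, was in 13 of 18 matched promoters of the interferon list (72.2%) and in 2.69% of promoters of tested genes.

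**Figure D3:**
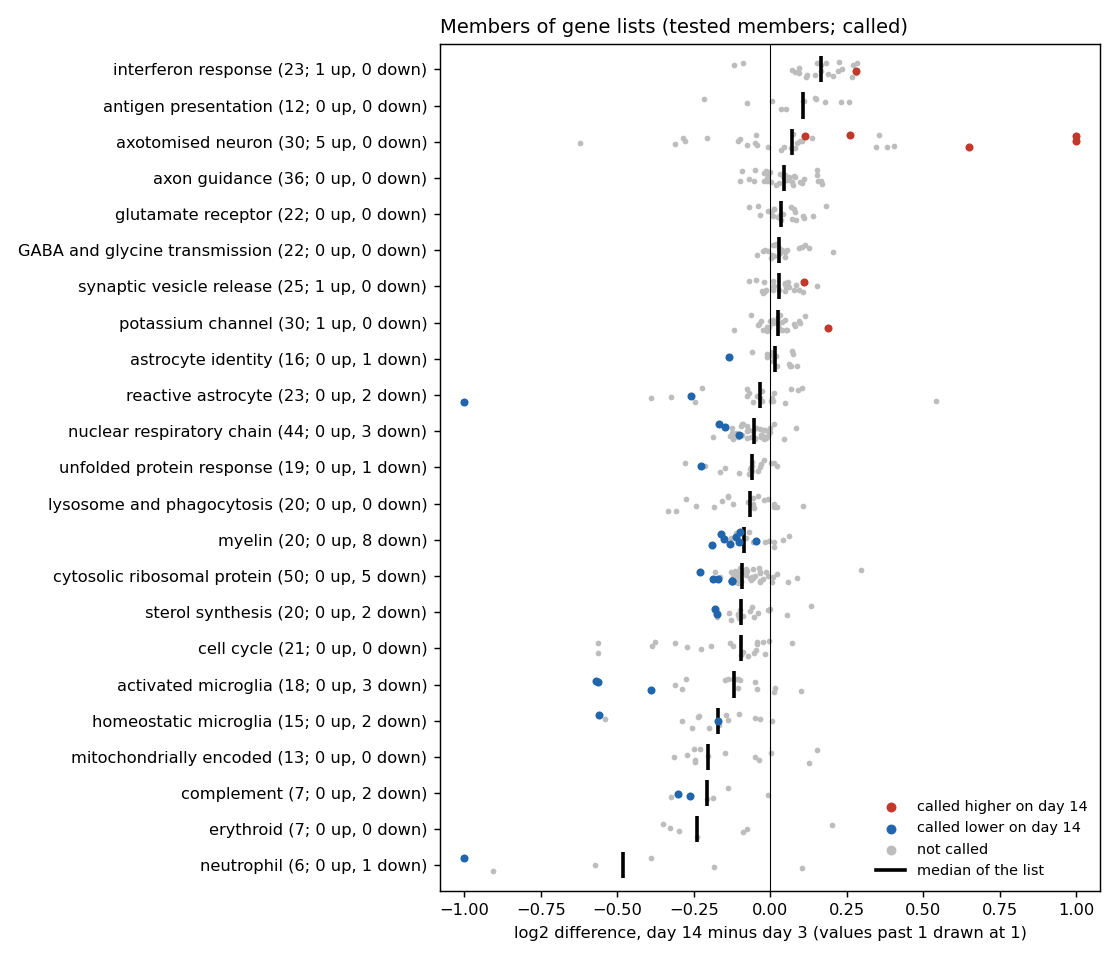
Each row is 1 of the gene lists (a selection, not all of them), with its number of tested members and of members called higher (up) or lower (down) on day 14; points are members by log2 difference, day 14 minus day 3, and the black bar is the list median. Lists are ordered by median, and among those drawn interferon, antigen presentation and axotomised neuron genes stand at the top and complement, erythroid and neutrophil genes at the bottom.

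The differences also ran with the genomic span of genes. Called genes that rose had a median span of 30.7 kb, called genes that fell 8.56 kb and all tested genes 19.9 kb. Among genes at 5 FPKM or more the median log2 difference was -0.02 in the shortest of 5 span classes, where 40.7% of genes had a positive difference, and 0.02 in the longest, where 65.5% did. With the trend removed 120 genes were called, 56 higher and 64 lower, and 107 of the 148 were among them. The medians of the myelin, ribosomal protein, complement and interferon lists were then -0.08, -0.07, -0.20 and 0.18.

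**Figure D4:**
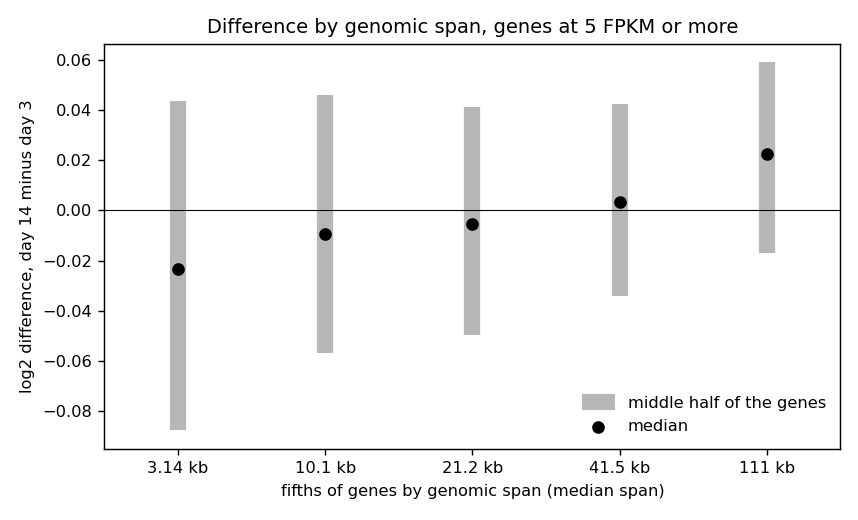
Genes at 5 FPKM or more are divided into 5 classes of equal size by genomic span, with the median span of each class in kb under the axis. Points are median log2 differences, day 14 minus day 3, and bars run from the lower to the upper quartile; the median climbs with span by less than 0.05 in all, within bars that cross 0 in every class.

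The deposited m6A peak lists of the same days were used only to describe the called genes. Of 61 genes called higher, 57 (93.4%) had a peak in the day 14 list and 55 (90.2%) in the day 3 list. Of 87 called lower, 68 (78.2%) had one in the day 14 list and 70 (80.5%) in the day 3 list. Over all tested genes 78.1% and 78.7% had one, and over tested genes at 5 FPKM or more 81.7% and 82.3%. Counting peaks with a p no higher than 1e-05 and an enrichment of 2 or above, the day 14 shares were 80.3% of genes called higher and 62.1% of genes called lower. Of all tested genes 64.9% had such a peak, and of tested genes at 5 FPKM or more 69.9%. In the day 3 list these shares were, in the same order, 83.6%, 60.9%, 64.5% and 69.6%. In the authors' deposited table Sprr1a had 1 peak in each list, annotated to its 3' UTR, with a fold enrichment of 4.92 on day 14 and 6.17 on day 3, and Anxa10 likewise 1 peak, at 4.10 and 8.21. These folds are the authors' and have no replicate error. Anxa10 was at only 0.0894 to 0.180 FPKM in the day 3 input libraries, so its day 3 fold rests on very little input RNA. A change in m6A between the days was not tested.

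Across all groups the called genes took different courses. Sprr1a was at 0.416, 0.158 and 1.57 FPKM in sham, at 14.8 to 16 FPKM on day 3, at 31.5, 30.1 and 37.9 FPKM on day 7 and at 32.6 to 38.4 FPKM on day 14. Anxa10 was at 0 to 0.161 FPKM in sham, which overlapped its day 3 values, and at 1.02, 1.04 and 1.6 FPKM on day 7. Ctla2a was at 1.36 to 1.79 FPKM in sham and at 3.10 to 3.31 FPKM on day 7, so its day 14 values stood above all other groups. Ly86 was at 1.46 to 2.28 FPKM in sham, at 3.53 to 4.32 FPKM on day 7 and at 3.31 to 3.43 FPKM on day 14, which lay between sham and day 3. S100a9 was at 2.51 to 3.73 FPKM in sham and 5.54 to 6.66 FPKM on day 7, so its day 14 values were the lowest of all groups. Library 3 of sham and library 3 of day 7 stood apart from their groups, with FPKM sums of 180340 and 181738, and no test was made across these groups here.

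**Figure D5:**
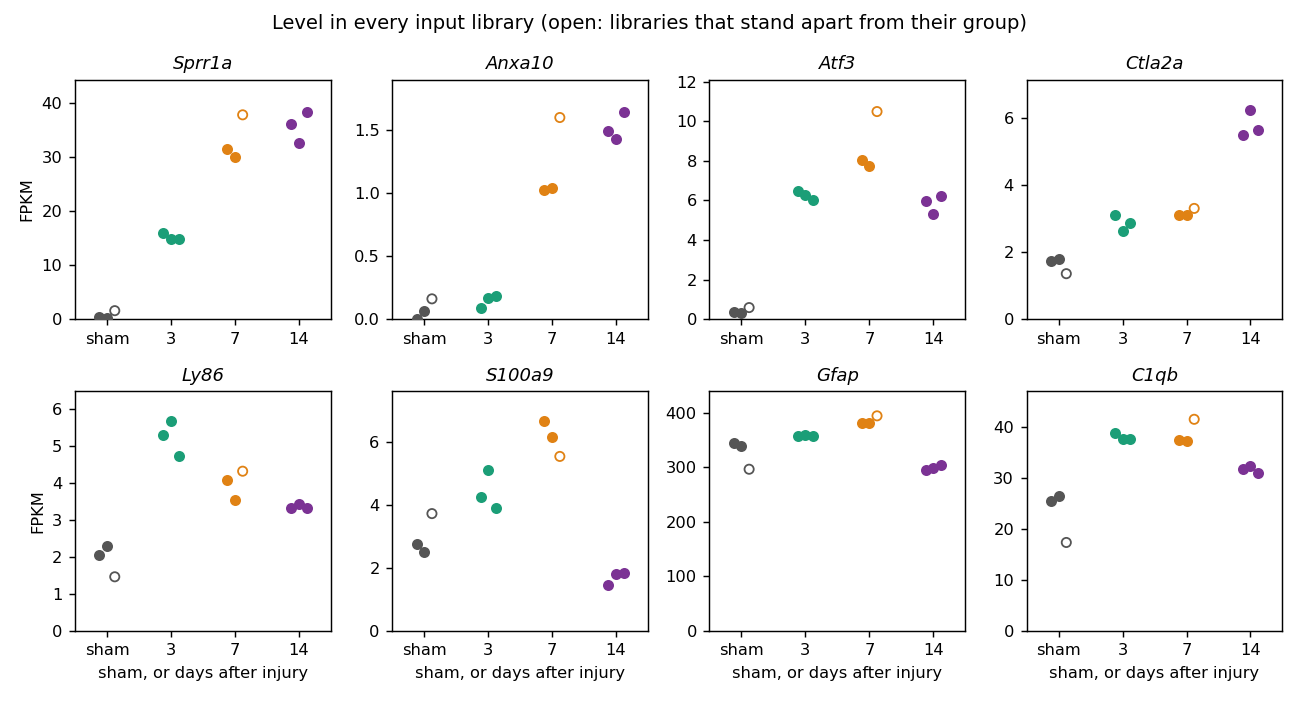
Each panel gives the level of 1 gene (FPKM, axis from 0) in every input library of the sham group and of days 3, 7 and 14; open points are sham library 3 and day 7 library 3. Sprr1a and Anxa10 lie above their day 3 values on day 7 as on day 14, Ctla2a is highest on day 14, and Ly86 and C1qb lie between sham and day 3 on day 14.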

How the data were processed

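Per the submitters' processing notes, HISAT2, StringTie, edgeR and ChIPseeker were used on these data. Their versions and settings, the genome build and the peak caller were not stated there. The authors deposited 1 table of FPKM per gene, as its header names them, for poly(A)-selected input libraries, with strand-marking chemistry per the labels' protocols. FPKM of a gene depends on all other genes of its library. The deposited peak tables hold a fold enrichment as a ratio and a score (lg.p, base 10 logarithm of a p) per peak, per the file headers. FPKM carries no read count, so depth is unknown and no counting interval is given.

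Genes with a mean of at least 0.5 FPKM over the 6 libraries were fitted as log2(FPKM + 0.5) in R 4.3.3 by limma 3.58.1 (lmFit, then eBayes with its trend option), day 14 minus day 3, two-sided, with Benjamini-Hochberg adjustment over all 15539 genes; a fold understates the change of low genes. SEs are moderated. Named genes were the up to 20 higher and 20 lower called genes with the largest differences, non-overlapping groups, a mean of at least 1 FPKM in either group and no predicted name, with called members of each list (up to 6, or the 2 with the smallest p). Other genes (among them Map1b, L1cam, Lrp1, Kif1a, App, Lgmn, Mobp, Jun, S100a11, Gal, Csf1r, Cx3cr1, C1qa, C3, Stat2, Irf9, Ifit1, Slc5a7) were named after their values were seen. The comparison, its 54 lists (1082 genes, 25 matched through RefSeq synonyms) and the alternatives were chosen with earlier results of these data known. The fit was tested on simulated data. Alternatives covered pseudocounts, filters, scalings, a replicate block, wider fits, weights, thresholds and each library left out. The genomic span fit, the fit without day 3 libraries 1 and 2, and the lung and liver genes were added after the data were seen. Promoters are RefSeq windows, 1 per gene. Some called genes are not reported here.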

Additional observations from a re-analysis of the deposited data

How the results depend on the processing

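With the replicate number as a block 7 genes were called (3 higher, 4 lower). Deviations of libraries with the same number correlated at 0.08, 0.21 and 0.15, and those of other pairs at -0.17 to 0.02. Not all of the former were over the limit of 0.1, so the main fit did not pair the libraries. The total of 148 calls rests on that choice. Each library nevertheless correlated best with its own number, and whether libraries of the same number share a source was not tested. The totals (higher, lower) were 8 (5, 3) with no filter on low values, 265 (122, 143) at a mean of at least 5 FPKM, 2 (2, 0) in a limma fit of all 12 input libraries, where 280 genes had an unadjusted p below 0.05, and 4 (3, 1) in a fit of the 9 injured ones. They were 6 (3, 3) at an adjusted p below 0.01, 7 (2, 5) with an absolute log2 of at least 1, 4 (3, 1) in a test against an absolute log2 of 0.2, and 4 (1, 3) without day 3 libraries 1 and 2, where the lone day 3 library is assumed to vary like day 14. Rescaling to TPM gave 118 higher and quantile normalisation 40 lower. Leaving out 1 library gave 8 to 17 calls (3 to 9 higher, 5 to 8 lower), with fewer libraries by construction. Otherwise the cause was not tested. Pseudocounts of 0.1 and 1, array weights, robust eBayes and median-of-ratios scaling gave 143 to 185 calls. Among named genes the sign was lost for Mbp (0 after quantile normalisation) and turned, without a call, for Lyz2 (0.0983), Hoxc8 (0.0247), Hoxd8 (0.0179) and Hoxc9 (0.0108) without day 3 libraries 1 and 2, and for Hoxa5 in TPM (0.0104) and with the span trend removed (0.0243). With 1 library left out the range crossed 0 for Hoxa5 (-0.0508 to 0.0502), Hoxa11 (-0.0752 to 0.107), Hoxc4 (-0.117 to 0.118), Hoxc5 (-0.244 to 0.0123), Hoxc9 (-0.0717 to 0.0241) and Hoxc12 (-0.0932 to 0.136). Sprr1a kept its call except in the 12-library fit and without day 3 libraries 1 and 2 (log2 1.15 to 1.27 over all alternatives). Low depth cannot be told from low level here.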

Other observations

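Genes of transmission and axon guidance leaned upward by small amounts without passing. Of 22 glutamate receptor genes 0 were called by limma, 4 had an unadjusted p below 0.05, 6 had day 14 values wholly above day 3 and 1 wholly below, and 18 of 22 log2 differences were positive (median 0.03). Grin1, the obligatory NMDA receptor subunit, was at 36.5, 37.1 and 36.5 FPKM on day 14, against 33.8, 33.9 and 34.4 FPKM on day 3 (limma adjusted p = 0.055). Of 22 GABA and glycine transmission genes 0 were called by limma and 4 had an unadjusted p below 0.05, with 6 wholly above and 1 wholly below. Glra1, a glycine receptor subunit, was at 23.4, 23.4 and 24.4 FPKM on day 14, against 20.6, 19.8 and 21.3 FPKM on day 3 (limma adjusted p = 0.0548). Of 36 axon guidance genes 0 were called by limma, 9 had an unadjusted p below 0.05, 12 lay wholly above and 1 wholly below. For comparison, 2388 of all 15539 tested genes had an unadjusted p below 0.05 by limma and 7960 had a positive log2 difference. Wholly above lay 11.8% of them and wholly below 9.92%.

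Hox genes, which mark the level of the cord, had 0 of 26 called by limma and 9 at an unadjusted p below 0.05, with 6 wholly above, 2 wholly below and a median of 0.07. Y-linked Ddx3y was at 10.7, 10.4 and 11.5 FPKM on day 14 and at 11.3 to 11.4 FPKM in the day 3 libraries. Y-linked Eif2s3y was at 8.22 to 8.85 FPKM and Xist, a transcript of female cells, at or below 0.0176 FPKM in all 6, as in male tissue.

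Some called genes overlap other models on the same strand and are given as values only; whether reads are shared was not tested. Kctd12, a GABA-B receptor subunit, was listed at 0 in all 3 day 14 libraries and at 7.73, 7.94 and 7.38 FPKM on day 3, and was also listed at 0 in day 7 library 2 and sham library 1. Of 49 tested genes listed at 0 in a library and above 3 FPKM in another, Kctd12 was the 1 called. Mapkapk5, a stress kinase, was at 6.98, 6.6 and 7.53 FPKM on day 14, against 3.79, 3.36 and 3.97 FPKM on day 3, while Adam1a on the same strand was at 2.64 FPKM on day 14 and 5.58 FPKM on day 3. Brms1 was at 0.626, 0.367 and 0.561 FPKM on day 14, against 2.08, 2.23 and 4.45 FPKM on day 3, and overlaps Gm50388, which was at 13.6 FPKM on day 14 and 9.60 FPKM on day 3. In all 39 called genes overlap a model on the same strand, and in 4 of these the partner's values lay the other way with no overlap of groups.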
